A study of Mus musculus with 12 samples.

Results

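Cytosolic ribosomal proteins are the protein components of the large and small subunits of the ribosome that translates nuclear-encoded mRNAs. The genes were chosen by mouse symbol: Rpl or Rps followed by digits, with an optional a, b, l, x or l-number ending, together with Rpsa, Rplp0, Rplp1 and Rplp2, leaving out pseudogene symbols ending in -ps and the Rps6k kinases. The symbol rule matched 82 of 23479 genes. Of these, 78 reached at least 10 normalized read counts in at least 3 of 12 libraries and are described here, 47 of the large and 31 of the small subunit, among 13111 genes that passed the same filter.

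The libraries came from cultured cells of 1 B cell lymphoma of a C57BL/6 mouse carrying both Eµ-Myc, a Myc transgene driven by the immunoglobulin heavy chain enhancer, and Eµ-rtTA. All 4 groups therefore carried the Myc transgene, were grown with IL-7 and had been selected with puromycin after retroviral transduction. TFEB cells carried TFEB with Ser-211 changed to Ala, fused to ERT2, an altered hormone-binding part of the human estrogen receptor, and received 4-hydroxytamoxifen (4-OHT, the ligand that activates ERT2 fusions) or vehicle for 4 days. Vector cells carried the empty puromycin virus and received 4-OHT or vehicle for the same time. The dose is given as 250 nM in the treatment protocol and as the same figure in ng/mL in the series text, so it is uncertain. Each group had 3 replicates, which the labels do not describe as separate cultures or transductions, so p-values here capture only how far these samples spread, which may be technical.

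Ribosomal protein mRNAs are among the most abundant in growing cells, and most begin with a cytosine followed by a run of pyrimidines, the terminal oligopyrimidine (TOP) motif. Through this motif mTORC1, acting by way of LARP1 and the 4E-BP proteins, is known to control how much of each mRNA is translated and kept, while MYC is known to raise transcription of ribosomal protein genes. TFEB activates genes of lysosomes and autophagy, and mTORC1 is known to hold it in the cytoplasm by phosphorylating the serine altered in this construct.

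Each library held 11849029 to 22109283 reads, and the number of genes with any read ran from 11390 to 19250. Tfeb, whose count can hold reads of both the transgene and the endogenous gene, was at 702, 581 and 711 normalized counts in TFEB cells in 4-OHT, 1597, 1955 and 1476 in TFEB cells in vehicle, 231, 195 and 238 in vector cells in 4-OHT, and 252, 255 and 223 in vector cells in vehicle. TFEB cells were thus above vector cells in every library. The submitted source name is lymph node, and all 9 B lineage markers found in the data were expressed in every group. Macrophage and myeloid markers (10 genes) were low, summing to 48.4 to 174 normalized counts in TFEB cells in 4-OHT and 28.8 to 95.4 in vehicle. In vector cells they summed to 9.3 to 59.3 in 4-OHT and 10.2 to 36.1 in vehicle. Erythroid and platelet markers (10 genes) summed to 9.69 to 72.3 in 4-OHT and 21.3 to 58.1 in vehicle in TFEB cells. In vector cells these sums were 11.8 to 43.9 and 4.355 to 27.3. Of these markers Hba-a1, Hba-a2, Hbb-bt, Hbb-bs and Pf4 were at 0 in every library. T and NK cell markers and stromal and endothelial markers summed to more, mostly from Lck and Pecam1, as given below.

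Windows of 65 bases around the annotated transcription start (40 before it and 25 from it onward) are printed from the RefSeq promoters of build GRCm38.p6. The TOP motif would lie in these windows if the annotated start is the one used. They cover 6 of the genes that fell most in TFEB cells given 4-OHT, then 5 abundant genes that did not pass the threshold there, chosen after their values were seen, and lastly Rpl3l, which rose. Capitals mark the longest run of C or T within 25 bases of the start. Where a gene has several promoters, the one with the longest run is printed. The annotated start need not be the one used in these cells, so a short run does not show that the TOP motif is absent.
Rpl22l1, chr3:28805468-28805532, plus strand: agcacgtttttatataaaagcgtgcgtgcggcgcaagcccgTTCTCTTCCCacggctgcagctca
Rps10, chr17:27635220-27635284, minus strand: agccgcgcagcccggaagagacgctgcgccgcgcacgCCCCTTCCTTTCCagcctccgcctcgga
Rpl28, chr7:4792925-4792989, plus strand: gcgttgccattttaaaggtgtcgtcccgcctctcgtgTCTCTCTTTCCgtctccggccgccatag
Rpl5, chr5:107900488-107900552, plus strand: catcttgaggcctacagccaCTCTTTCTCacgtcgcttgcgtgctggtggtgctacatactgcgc
Rps18, chr17:33955641-33955705, minus strand: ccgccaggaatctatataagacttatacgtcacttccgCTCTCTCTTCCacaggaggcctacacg
Rps2, chr17:24720023-24720087, plus strand: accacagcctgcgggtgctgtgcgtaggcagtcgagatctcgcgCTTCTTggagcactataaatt
Rpl41, chr10:128549144-128549208, minus strand: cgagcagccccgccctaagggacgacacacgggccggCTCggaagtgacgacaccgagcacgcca
Rpl24, chr16:55966235-55966299, plus strand: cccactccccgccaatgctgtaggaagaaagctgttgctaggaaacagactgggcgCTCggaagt
Rpl10, chrX:74270776-74270840, plus strand: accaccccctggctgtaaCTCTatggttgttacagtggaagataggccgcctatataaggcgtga
Rplp0, chr5:115559427-115559491, plus strand: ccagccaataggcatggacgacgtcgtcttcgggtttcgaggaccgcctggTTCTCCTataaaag
Rpl19, chr11:98026884-98026948, plus strand: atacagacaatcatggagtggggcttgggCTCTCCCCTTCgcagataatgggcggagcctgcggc
Rpl3l, chr17:24727786-24727850, plus strand: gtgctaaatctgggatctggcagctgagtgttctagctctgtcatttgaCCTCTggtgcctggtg

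Of 59 ribosomal protein genes with a RefSeq promoter, 32 (54.2%) had a run of at least 8 pyrimidines within 25 bases of the start. Among all 27025 genes with a promoter, 22.3% had such a run. Where a gene had several promoters, the longest run among them was used. Among the printed windows the run was 10 bases in Rpl22l1, 13 in Rps10, 11 in Rpl28, 9 in Rpl5 and 11 in Rps18, but only 6 in Rps2. Of the genes that did not pass, Rpl19 had a run of 11 bases, while Rplp0 had 7, Rpl10 had 4, and Rpl24 and Rpl41 had 3 each. Not printed were Rpl9, which also fell and had a run of 4, and Rpl13a, which did not pass and had 14. Of the 59 genes, 26 of the 32 with a run of at least 8 bases fell in TFEB cells given 4-OHT. So did 17 of the 27 with a shorter run, and 13.9% of all tested genes (adjusted p under 0.05, limma). The E-box CACGTG, a sequence that MYC and TFEB can both bind, was searched on either strand of the 300-base promoter. It was found in any promoter of the gene in 10.2% of the 59 genes and in 8.09% of all 27025 genes.

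The transcripts differed widely in level although the proteins are mostly built into the ribosome in equal numbers. Per kilobase of the principal annotated transcript, the mean over all 12 libraries had a median of 17332 normalized counts over the 78 genes. It was highest for Rps12 (64185), followed by Rpl17 (53530) and Rpl21 (46110). Among the 75 genes whose mean reached 1000 normalized counts the highest was 56.8 times the lowest, Rpl7l1 at 1131 per kilobase. Rpl7l1 is a paralog of Rpl7, so this span does not describe the standard proteins alone. The next lowest was Rps20 at 2475, a value that rests on an annotated transcript of 3706 bases, and then Rpl27 at 4783. The remaining 3 genes, Rps27, Rpl34 and Rpl3l, had means of only 55.3, 67.8 and 180.6 normalized counts before division by length.

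Sequence shared with other annotated genes, processed pseudogenes among them, makes these levels uncertain. A median of 56.5% of a gene's 50-base transcript words occurred in transcripts of another annotated gene, and 49 of 78 genes shared at least 50% of theirs. Exons of another annotated gene overlapped 12 of the 78 genes. They covered, for example, 91.6% of the exonic bases of Rps10, 71.5% of Rpl24, 59.3% of Rpl13a, 46.6% of Rpl5 and 28.8% of Rpl22l1. The authors' handling of reads with several matches was not given in the sources used here. Rps27 shared 98.7% of its words and Rpl34 50.6%. Just outside the filter, Rpl30 had 0 to 8.59 normalized counts, Rpl39l had at most 13.8 and Rpl10l at most 9.04, while Rpl26 was listed at 0 in every library, although Rpl26 and Rpl30 encode constitutive ribosomal proteins. Rpl26 shared 71.3% of its words and Rpl30 76.4%.

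In TFEB cells, 4-OHT was accompanied by lower values of most cytosolic ribosomal protein mRNAs. Of the 78 genes, 56 fell and 1 rose at an adjusted p under 0.05 (limma on log2(value + 1), all 12 libraries in 1 fit), where 13.9% of all tested genes fell and 13.7% rose. The median log2 change of the 78 genes was -0.31, against 0.04 over all tested genes. Changes were negative in 6190 of all 13111 tested genes and in 74 of the 78. The values of the 3 libraries in 4-OHT all lay below those of the 3 in vehicle for 58 genes, as they did for 18.4% of all tested genes. To set these genes beside others of like abundance, the fit was repeated, in an alternative added after the data were seen, on the 4099 genes that reached 1000 normalized counts in 3 libraries, where 60 of 75 ribosomal protein genes and 28.6% of all genes fell. The count of 56 was 35 without replicate 2 of TFEB cells in vehicle, 37 without replicate 2 of TFEB cells in 4-OHT, 36 without the library with the most genes with a read in each group other than vector cells in vehicle (replicate 2 of TFEB cells in 4-OHT, replicate 1 of TFEB cells in vehicle and replicate 2 of vector cells in 4-OHT, chosen after the data were seen) and 23 without a variance trend. In each of the 27 alternatives run 22 of the 56 passed, among them Rpl22l1, Rpl5, Rpl17, Rpl9, Rps10, Rps2, Rps18, Rpl36, Rps20, Rps19, Rpsa and Rps6.

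The load of these transcripts in each library showed the same pattern. The 78 genes together took 6.30%, 6.18% and 6.20% of reads in TFEB cells in 4-OHT, against 7.12%, 8.09% and 7.54% in TFEB cells in vehicle. They took 7.83%, 7.84% and 6.79% in vector cells in 4-OHT, against 7.33%, 8.38% and 8.19% in vector cells in vehicle. The 3 libraries of TFEB cells in 4-OHT were the lowest of the 12 and did not overlap with TFEB cells in vehicle, whereas the vector groups overlapped. Large subunit genes took 3.88 ± 0.04% of reads in TFEB cells in 4-OHT and 4.67 ± 0.25% in TFEB cells in vehicle, and small subunit genes 2.35 ± 0.02% and 2.91 ± 0.25% (SD, n = 3 each). In bulk RNA, fewer cells that express a gene and less of its RNA per cell cannot be told apart, and a fall of all RNA in a cell would not be seen in values scaled to the library.

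**Figure D1:**
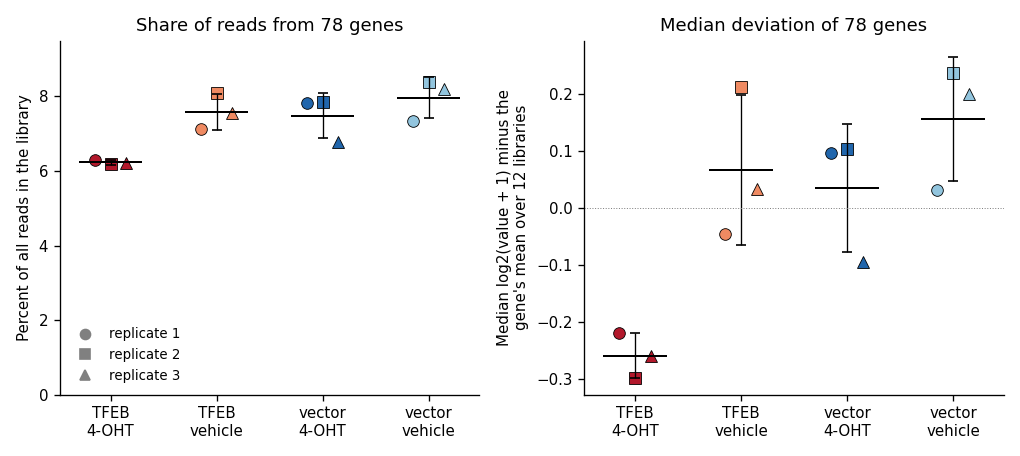
Left, percent of all reads in each library that came from the 78 cytosolic ribosomal protein genes. Right, median over the 78 genes of each library's log2(value + 1) minus the gene's mean over the 12 libraries. Symbols are libraries, horizontal lines group means and bars SDs (n = 3); the 3 libraries of TFEB cells in 4-OHT, at 6.18% to 6.30%, are below every other library in both panels.

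Some measures of the samples were also lower in TFEB cells in 4-OHT, while others overlapped with TFEB cells in vehicle. Rn45s, the ribosomal RNA precursor, took 4.53%, 4.13% and 4.44% of reads in TFEB cells in 4-OHT, against 5.58%, 6.66% and 4.76% in TFEB cells in vehicle. In vector cells Rn45s took 4.80%, 5.43% and 5.82% in 4-OHT, against 6.49%, 6.93% and 5.51% in vehicle. The 9 B lineage markers summed to 33010 to 34970 normalized counts in TFEB cells in 4-OHT and 53170 to 56820 in TFEB cells in vehicle. Of the 9 markers 7 fell and 2 rose, Cd79a and Blnk (adjusted p under 0.05, limma). Of all tested genes 13.9% fell and 13.7% rose. In vector cells 0 of the 9 passed. T and NK cell markers (11 genes, none of them at 0 throughout) summed to 512 to 733 in TFEB cells in 4-OHT and 429 to 775 in vehicle, most of it from Lck. Stromal and endothelial markers (10 genes) summed to 722 to 966 and 876 to 907, most of it from Pecam1. The part of these measures in the result was not tested.

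The genes that fell most belonged to both subunits. Rpl22l1 (chr3:28805436-28807424 in mm10), a paralog of Rpl22 that can take its place in the large subunit, had 2599, 2600 and 2295 normalized counts in TFEB cells in 4-OHT, against 3467, 4755 and 3637 in TFEB cells in vehicle. All values in 4-OHT lay below all in vehicle, and the log2 change was -0.65 ± 0.12 (SE; 36.3% lower, adjusted p 5.3e-05, limma). Rpl22 itself had 15919, 15003 and 15819 normalized counts in 4-OHT and 16882, 19864 and 19857 in vehicle, a log2 change of -0.27 ± 0.09 (adjusted p 0.027, limma). That call for Rpl22 was lost without any 1 of the 3 replicates in 4-OHT (log2 change -0.29, -0.25 and -0.28, adjusted p 0.057, 0.11 and 0.066, limma) or without replicate 2 or 3 in vehicle (-0.23 each, adjusted p 0.093 and 0.10). Rpl22l1 thus made up 14.0%, 14.8% and 12.7% of the normalized counts of the pair in TFEB cells in 4-OHT, against 17.0%, 19.3% and 15.5% in TFEB cells in vehicle. In vector cells the share was 18.3%, 17.9% and 17.7% in 4-OHT, against 19.4% to 23.0% in vehicle.

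Rps10 (chr17:27630418-27636669), a small subunit protein, had 6517, 6458 and 6063 normalized counts in TFEB cells in 4-OHT, against 8947, 10188 and 8067 in TFEB cells in vehicle. Its log2 change was -0.51 ± 0.09 (29.7% lower, adjusted p 2.3e-05, limma), with groups that did not overlap. Rps2, also of the small subunit, had 10658, 10668 and 10028 normalized counts in 4-OHT, against 15611, 15685 and 13172 in vehicle, and fell by 0.50 ± 0.08 on the log2 scale (adjusted p 2.3e-05, limma). In both genes each library in 4-OHT was below each in vehicle. Annotated exons of RPS10-NUDT3, a readthrough gene, overlap 91.6% of the exonic bases of Rps10, so its count depends on how reads in shared exons were assigned. Further falls of this size were those of Rpl17 (-0.53), Rpl9 (-0.49) and Rps18 (-0.48, or -0.31 without replicate 2 of TFEB cells in vehicle).

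Rpl36, Rps20 and Rpl28 also stood near the top, but their size rested partly on 1 vehicle library. Rpl28, a large subunit protein, had 25482, 24905 and 25678 normalized counts in TFEB cells in 4-OHT, against 29731, 50676 and 32462 in TFEB cells in vehicle. Replicate 2 in vehicle was far above the other two, and without it the log2 change was -0.29 instead of -0.53 (adjusted p 0.027, limma). Rpl36 had 12618, 11169 and 12819 in 4-OHT, against 15014, 24027 and 17675 in vehicle, and its log2 change was -0.61, or -0.42 without that replicate. Rps20 had 7301, 6730 and 7066 in 4-OHT, against 8856, 13158 and 9509 in vehicle, with a log2 change of -0.56, or -0.38 without it. For all 3 genes the groups did not overlap and the fall passed the threshold with or without this library.

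**Figure D2:**
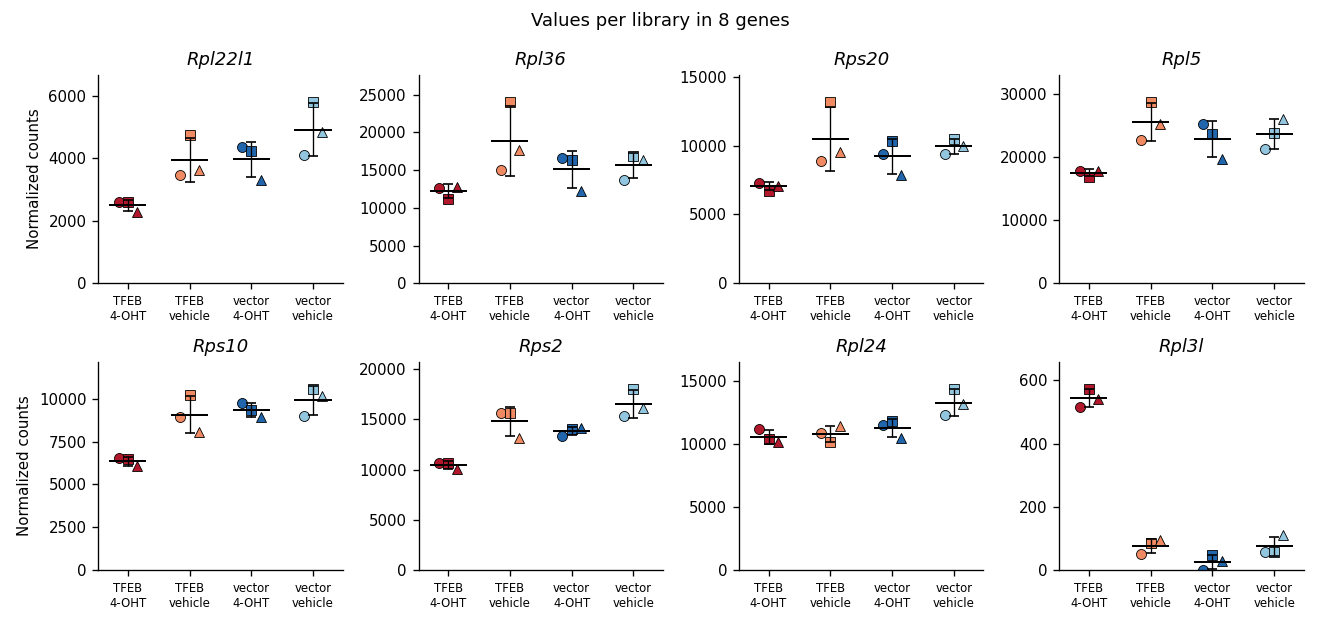
Normalized counts per library of 8 genes in TFEB cells and vector cells given 4-OHT or vehicle; symbols are replicates 1 (circle), 2 (square) and 3 (triangle), lines group means and bars SDs (n = 3). Values of Rpl22l1, Rpl36, Rps20, Rpl5, Rps10 and Rps2 in TFEB cells in 4-OHT are all below those in TFEB cells in vehicle, Rpl24 overlaps, and Rpl3l is higher in 4-OHT.

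Rpl5 and Rpl11 bind the 5S ribosomal RNA as a complex that is known to inhibit MDM2 when ribosome assembly is disturbed. Rpl5 had 17788, 16893 and 17867 normalized counts in TFEB cells in 4-OHT, against 22622, 28712 and 25267 in TFEB cells in vehicle, and fell by 0.54 ± 0.10 on the log2 scale (31.1% lower, adjusted p 7.7e-05, limma). Rpl11 had 9911, 10310 and 10876 in 4-OHT, against 11810, 18042 and 12702 in vehicle, and fell by 0.43 ± 0.11 (adjusted p 0.0029, limma). Neither gene's groups overlapped. Annotated exons of Fam69a overlap 46.6% of the exonic bases of Rpl5, and 93.8% of its 50-base words occur in other genes. Without replicate 2 in vehicle, the highest of the 3, the log2 change of Rpl11 was -0.24 and did not pass (adjusted p 0.054, limma), nor did it without a variance trend (adjusted p 0.083). Of the other 5 tested genes fixed in this list, none passed the threshold, with log2 changes of 0.01 ± 0.10 for Mdm2, 0.23 ± 0.09 for Trp53 and 0.35 ± 1.02 for Cdkn1a, which was at 76.6 normalized counts or less in every library.

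Among other proteins of known role, Rps6, the substrate of the S6 kinases, fell by 0.36 ± 0.09 on the log2 scale (adjusted p 0.0013, limma). Rpsa, a small subunit protein also known as the laminin receptor precursor, fell by 0.45 ± 0.09 (adjusted p 0.00015, limma), and Rps19, whose mutation causes Diamond-Blackfan anaemia in humans, by 0.44 ± 0.09 (adjusted p 0.00034, limma). Rpl38, required in mice for the translation of certain Hox mRNAs, fell by 0.32 ± 0.09 (adjusted p 0.01, limma). Rps4x fell by 0.41 ± 0.09 (adjusted p 0.001, limma) and Rpl39, which lines the exit tunnel, by 0.35 ± 0.10 (adjusted p 0.0064, limma). Rps27a, a fusion of ubiquitin and a ribosomal protein, had a log2 change of -0.23 ± 0.09 (adjusted p 0.048, limma), just past the threshold. Calls of 3 of these genes were lost when 1 library was left out. Without replicate 2 of TFEB cells in vehicle the log2 change of Rpl39 was -0.21 (adjusted p 0.095, limma). Rpl38 had -0.24 without replicate 3 of TFEB cells in vehicle (adjusted p 0.080, limma) and -0.29 without replicate 2 of TFEB cells in 4-OHT (adjusted p 0.051). Rps27a did not pass without any 1 of the 6 TFEB libraries or without replicate 1 of vector cells in vehicle, with log2 changes of -0.26 to -0.21 and adjusted p of 0.052 to 0.16 (limma).

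Of the 78 genes, 21 passed in neither direction, among them several of the most abundant. The stalk of the large subunit, where elongation factors dock, is made of Rplp0, Rplp1 and Rplp2. Rplp0 had 39822, 37310 and 36239 normalized counts in TFEB cells in 4-OHT, against 39334, 37069 and 41407 in TFEB cells in vehicle, overlapping groups with a log2 change of -0.06 ± 0.09. Rplp1 had a log2 change of -0.08 ± 0.08, and Rplp2 fell by 0.30 ± 0.09 (adjusted p 0.017, limma). The call of Rplp2 was lost without replicate 1 or 2 in 4-OHT (log2 change -0.27 and -0.28, adjusted p 0.078 and 0.061, limma) or replicate 2 or 3 in vehicle (-0.25 and -0.28, adjusted p 0.070 and 0.053). Rpl24, of the large subunit, had 11227, 10382 and 10152 normalized counts in 4-OHT, against 10844, 10183 and 11403 in vehicle, a log2 change of -0.03 ± 0.08. For Rpl24 an interval of 2 SE ran from -0.19 to 0.13, so a change of the median size, -0.31, lay outside it, and for Rplp0 it ran from -0.24 to 0.13. Rpl24 shares 71.5% of its exonic bases with the annotated gene Gm28037.

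The log2 change was 0.02 ± 0.09 for Rpl41, -0.03 ± 0.09 for Rpl10 and -0.09 ± 0.11 for Rpl19, and the groups overlapped for each. Rps14, Rpl13a and Rpl7 had log2 changes of -0.29 ± 0.12, -0.16 ± 0.09 and -0.17 ± 0.08, which did not pass (adjusted p 0.076, 0.19 and 0.13, limma). Rps27 had 43.0, 55.5 and 97.0 normalized counts in TFEB cells in 4-OHT, against 53.1, 27.7 and 6.91 in TFEB cells in vehicle. Rpl34 had 92.5, 69.7 and 66.0 in 4-OHT, against 51.4, 73.6 and 37.3 in vehicle. Both were near the filter and their groups overlapped.

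**Figure D3:**
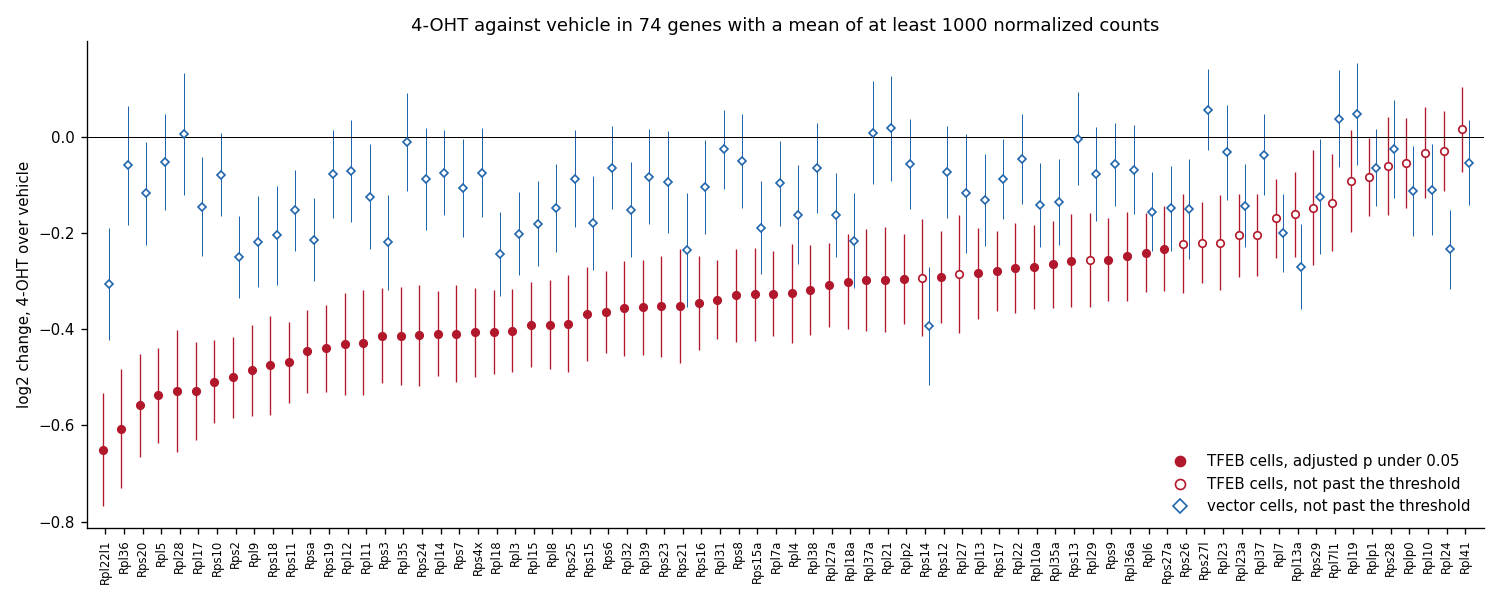
Log2 change of 4-OHT over vehicle with its SE (limma) in TFEB cells (circles, filled where the adjusted p is under 0.05) and in vector cells (diamonds), for 74 of the genes whose mean reached 1000 normalized counts, ordered by the change in TFEB cells. In TFEB cells 73 of the 74 changes plotted are below 0, from -0.65 for Rpl22l1 to 0.02 for Rpl41.

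Rpl3l (chr17:24727820-24736143), a paralog of Rpl3 known mainly from heart and skeletal muscle, was the gene that rose. It had 516.5, 573 and 542 normalized counts in TFEB cells in 4-OHT, against 50.6, 85.4 and 94.0 in TFEB cells in vehicle. The groups were far apart, the log2 change was 2.86 ± 0.59 (7.25-fold higher on the log2(value + 1) scale, adjusted p 3.0e-04, limma), and no 50-base word of its transcript was found in another gene. In vector cells it had 2.15, 47.5 and 29.6 normalized counts in 4-OHT, against 59.0, 57.5 and 110 in vehicle, and the log2 change of -2.13 ± 0.59 did not pass (adjusted p 0.26, limma). Rpl3, the abundant partner, had 9958, 8643 and 9322 in TFEB cells in 4-OHT, against 12690, 12332 and 11859 in TFEB cells in vehicle, and fell by 0.40 ± 0.09 on the log2 scale (adjusted p 0.00047, limma). Rpl3l thus made up 4.93%, 6.22% and 5.50% of the normalized counts of the pair in TFEB cells in 4-OHT, and under 1% in every library of the other groups. Rpl3l is 1 of 4 paralogs with an l ending among the 78, and the other three did not rise: Rps27l had a log2 change of -0.22 ± 0.08 (adjusted p 0.051, limma), Rpl7l1 of -0.14 ± 0.10, and Rpl22l1 fell as described.

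Divided by features of the genes, the median changes in TFEB cells were similar, from -0.35 to -0.29, while the share that fell differed for some features. These differences were not tested, and 13.9% of all tested genes fell. Of 28 genes with a small nucleolar RNA gene inside them, 23 fell (82.1%, median log2 change -0.33). Of the other 50 genes 33 fell (66%, median -0.30). Of 49 genes that shared at least 50% of their 50-base words with other genes, 36 fell (73.5%, median -0.32). Of the other 29 genes 20 fell (69%, median -0.31). With a pyrimidine run of at least 8 bases 26 of 32 genes fell (81.2%, median -0.33), and with a shorter run 17 of 27 (63%, median -0.29). Across these 59 genes the Spearman correlation of log2 change and run length was -0.21, as a description over genes that share the same libraries. By subunit, 25 of 31 small subunit genes fell (80.6%, median -0.35) and 31 of 47 large subunit genes (66%, median -0.30).

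In vector cells 4-OHT moved none of the 78 genes past the threshold. An unadjusted limma p under 0.05 was found for 15 of the 78 genes and for 822 of all 13111 tested genes. After adjustment limma called 0 of the 78, where 0.0153% of all tested genes fell and 0% rose. edgeR also called 0, as it did among all tested genes, and DESeq2 called 0, while it called 0.259% of all tested genes lower and 0.107% higher. The median log2 change was -0.11, against 0.03 over all tested genes. Changes were negative in 5867 of all 13111 tested genes and in 71 of the 78. Replicate 3 in 4-OHT was the lowest vector library, with 67 of the 78 genes below their mean over the 12 libraries, against 10 and 6 in the other 2 libraries of that group.

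Whether 4-OHT acted differently on the 2 kinds of cells was tested directly as the interaction, the log2 change in TFEB cells minus that in vector cells. Its median over the 78 genes was -0.20, against -0.03 over all tested genes. Values were negative in 6856 of all 13111 tested genes and in 68 of the 78. Only 5 genes passed with a more negative change in TFEB cells (Rpl36 at -0.55, Rpl28 at -0.53, Rpl5 at -0.48, Rps20 at -0.44 and Rps10 at -0.43) and 1 with a more positive change (Rpl3l at 4.99). This was close to the background, since 8.01% of all tested genes passed in the negative direction and 7.75% in the positive. The count of genes with a more negative change was from 0, without replicate 1 of vector cells in vehicle, to 15, without replicate 3 of vector cells in 4-OHT, and without replicate 2 of TFEB cells in vehicle it was 2, with Rpl5 at -0.40 and Rps10 at -0.34 still past the threshold (adjusted p 0.046 and 0.043, limma). The size for Rpl3l depends partly on replicate 1 of vector cells in 4-OHT, at 2.15 normalized counts, where 1 read was worth 1.07.

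Set against vector cells in the same drug, TFEB cells in 4-OHT were lower in 45 genes and higher in Rpl3l, with a median of -0.29 over the 78 genes and 0.05 over all tested genes. In this comparison 13.5% of all tested genes were lower and 13.6% higher. It shares the TFEB libraries in 4-OHT with the comparison above. Rpl22l1 had 2599, 2600 and 2295 normalized counts in TFEB cells against 4362, 4214 and 3318 in vector cells, a log2 difference of -0.66 ± 0.12 (adjusted p 4.2e-05, limma). Rps10 had 6517, 6458 and 6063 in TFEB cells against 9730, 9357 and 8952 in vector cells, a difference of -0.56 ± 0.09 (adjusted p 5.5e-06, limma), and Rpl39 (-0.47), Rpsa (-0.46) and Rps7 (-0.44) followed. For Rpl22l1 and Rps10 the groups did not overlap. The difference was 5.03 ± 0.59 for Rpl3l (adjusted p 3.9e-08, limma), a size that depends partly on the same vector library at 2.15 normalized counts. The count of 45 was 15 without the same 3 libraries that were left out above for their number of genes with a read in their group, and 24 without a variance trend.

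In vehicle, 6 genes were lower in TFEB cells than in vector cells, none was higher, and the median was -0.09, against 0.05 over all tested genes, of which 2.49% were lower and 2.89% higher. Rpl13a, a large subunit protein also known for a role in inflammatory translation control in human cells, had 11420, 11581 and 10738 normalized counts in TFEB cells against 13868, 17833 and 14792 in vector cells, a log2 difference of -0.45 ± 0.09 (adjusted p 0.0011, limma). Rps14, whose loss underlies the anaemia of the human 5q- syndrome, had 4326, 4158 and 3002 in TFEB cells against 5590, 6680 and 4385 in vector cells, a difference of -0.53 ± 0.12 (adjusted p 0.0059, limma). In both genes every TFEB library was below every vector library. Rps27a (-0.35), Rpl24 (-0.30) and Rpl7 (-0.27) were among the others that were lower, and Rplp0 had a difference of -0.30 ± 0.09 that did not pass (adjusted p 0.056, limma). These use the same TFEB libraries in vehicle as the 4-OHT effect, in which Rpl13a, Rps14, Rpl24, Rpl7 and Rplp0 did not pass. Without replicate 2 of vector cells in vehicle 1 gene was called, and without replicate 3 of vector cells in vehicle, or replicate 3 of TFEB cells in vehicle, 3. Rps14 did not pass without replicate 2 of vector cells in vehicle (-0.39, adjusted p 0.087, limma) or replicate 3 of TFEB cells in vehicle (-0.37, adjusted p 0.074). Without replicate 2 of vector cells in vehicle Rps27a, Rpl24 and Rpl7 had -0.27, -0.24 and -0.23 and did not pass either (adjusted p 0.13, 0.17 and 0.19, limma).

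Other mRNAs of the translation machinery were set beside these genes. Of 18 tested mRNAs listed as having a TOP motif but not encoding ribosomal proteins, 12 fell and none rose in TFEB cells given 4-OHT (median log2 change -0.32), where 13.9% of all tested genes fell and 13.7% rose. Npm1, a nucleolar chaperone of ribosome assembly, had 36155, 34979 and 34875 normalized counts in 4-OHT, against 47166, 58821 and 54300 in vehicle, and fell by 0.59 ± 0.10 on the log2 scale (adjusted p 1.7e-05, limma). Eif3e, a subunit of an initiation factor, fell by 0.62 ± 0.10 (adjusted p 9.8e-06, limma), Eef1g, of the elongation factor exchange complex, by 0.46 ± 0.08 (adjusted p 4.2e-05, limma), and Vim, an intermediate filament protein, by 0.75 ± 0.15 (adjusted p 2.3e-04, limma). Of 76 tested genes of the mitochondrial ribosome, 10 fell and 6 rose, with a median of -0.03, near the 13.9% and 13.7% of all tested genes. Of ribosomal proteins whose symbols the rule did not cover, Rps3a1 fell by 0.36 ± 0.10 (adjusted p 0.005, limma), while the ubiquitin-like fusion Fau (-0.10 ± 0.10) did not pass.

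**Figure D4:**
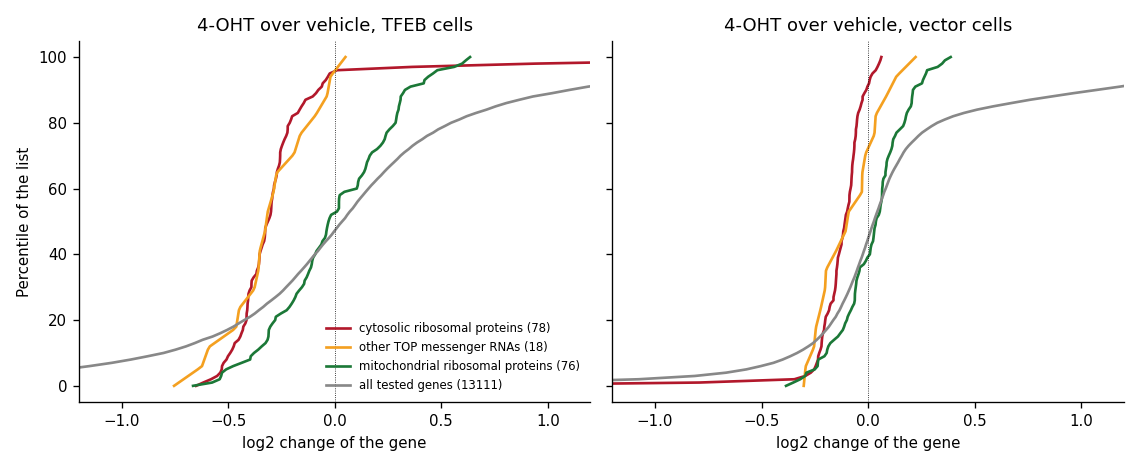
Percentiles of the log2 change of 4-OHT over vehicle in TFEB cells (left) and in vector cells (right) for the 78 cytosolic ribosomal protein genes, 18 other TOP mRNAs, 76 mitochondrial ribosomal protein genes and all 13111 tested genes; the axis is limited to 1.2 on either side, so Rpl3l and, in TFEB cells, Rps27 lie outside it. In TFEB cells the first and the second list have medians of -0.31 and -0.32, the mitochondrial list -0.03 and all genes 0.04.

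Of 17 tested genes of the mTORC1 arm that acts on TOP mRNAs, 6 rose and 3 fell in TFEB cells given 4-OHT, where 13.7% of all tested genes rose and 13.9% fell. Mtor, the kinase itself, had 26203, 25000 and 25962 normalized counts in TFEB cells in 4-OHT, 6777, 6271 and 6457 in TFEB cells in vehicle, 13107, 11737 and 13998 in vector cells in 4-OHT, and 12671, 11846 and 12806 in vector cells in vehicle. It thus rose by 1.98 ± 0.08 on the log2 scale in TFEB cells (adjusted p 1.3e-18, limma). In vehicle its log2 difference between TFEB and vector cells was -0.94 ± 0.08 (adjusted p 9.9e-10, limma). Rps6kb1, an S6 kinase, rose by 0.53 ± 0.10 (adjusted p 9.0e-05, limma). Eif4ebp1, a repressor of cap-dependent translation, had 861, 1035 and 835 normalized counts in 4-OHT, against 2044, 1660 and 2289 in vehicle, and fell by 1.13 ± 0.12 (adjusted p 1.4e-08, limma), and Rptor, the scaffold of mTORC1, fell by 0.55 ± 0.10 (adjusted p 5.0e-05, limma). These are mRNA levels, and the activity of mTORC1 was not measured in these libraries.

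Of 14 tested chaperones and importers of ribosomal proteins, 4 fell and none rose in TFEB cells given 4-OHT (median log2 change -0.14), where 13.9% of all tested genes fell and 13.7% rose. Bccip, known in human cells as a chaperone of the large subunit protein Rpl23, had 1271, 1042 and 1356 normalized counts in TFEB cells in 4-OHT, against 1491, 2028 and 1677 in TFEB cells in vehicle, and fell by 0.50 ± 0.11 on the log2 scale (adjusted p 7.2e-04, limma). Ipo7 and Ipo5, which carry ribosomal proteins into the nucleus, fell by 0.39 ± 0.08 and 0.32 ± 0.09 (adjusted p 4.7e-04 and 0.0045, limma), and the histone and ribosomal protein chaperone Nap1l1, itself in the TOP list, by 0.31 ± 0.09 (adjusted p 0.0071, limma). The call of Nap1l1 was lost without replicate 2 of TFEB cells in vehicle (-0.23, adjusted p 0.057, limma).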

How the data were processed

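The deposited values are a signal, normalized read counts per gene and library, made by the authors from 12 RNA-seq libraries of total RNA (NuGEN Ovation kit, per the labels' protocols). STAR 2.5.3, HTSeq 0.6.1, DESeq2 1.6.3 and build mm10 are named in the submitters' processing notes. Strand, annotation and any rule for reads with several matches were not given in the sources used here. In every library 100% of values were whole multiples, within 0.001, of its smallest value, so whole reads were recovered (11849029 to 22109283 per library), and a listed 0 could hide as many as 3 reads (2.21 to 4.15 normalized counts, counting error only).

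Genes with at least 10 normalized counts in at least 3 libraries were tested, 13111 in all. limma 3.58.1 (R 4.3.3, variance trend) was fitted to log2(value + 1) of all 12 libraries with 1 mean per group and 8 residual degrees of freedom, with Benjamini-Hochberg adjustment over all tested genes and a threshold of 0.05; fold changes are on that scale. The script was tested on simulated data. edgeR 4.0.16 and DESeq2 1.42.0 on the whole reads, other pseudocounts, filters and scalings, a replicate block and left-out libraries were alternatives. Same-numbered replicates did not deviate together, so the numbers were not used as pairs.

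The genes and lists were chosen with earlier results of these data known. Genes named by rule were the paralog pairs, the stalk, Rpl5, Rpl11, Rpsa, Rps6, Rps27a, Rps14, Rps19, Rpl24, Rpl38 and Rpl13a, up to 10 of the largest changes in each direction past the threshold in TFEB cells and in the interaction and up to 5 in the other comparisons, the 3 highest and 3 lowest means, genes next to the filter, and up to 4 of each companion list. No paralog named Rps4l is described. Gene positions, transcript lengths, small nucleolar RNA genes and shared words of 50 bases come from GENCODE M21 on GRCm38, the assembly also called mm10, and promoters from RefSeq on GRCm38.p6. Rows named as pseudogenes were left out, and some genes are not reported here by name.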

Additional observations from a re-analysis of the deposited data

Results flagged for a closer look

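The 4-OHT effect differed between TFEB and vector cells, by the test of the difference itself (limma interaction at an adjusted p under 0.05), for 13 of the genes described above. Some of these genes were named because they passed this test, so the count of 13 does not measure how common such a difference was. Among all tested genes 8.01% passed in the negative direction and 7.75% in the positive. Among cytosolic ribosomal protein genes the log2 difference, TFEB minus vector, was -0.55 for Rpl36, -0.53 for Rpl28, -0.48 for Rpl5, -0.44 for Rps20, -0.43 for Rps10 and 4.99 for Rpl3l. Among companion genes it was -0.65 for Bccip, -0.37 for Eef1g, -0.97 for Eif4ebp1, 1.93 for Mtor, -0.40 for Nap1l1, -0.56 for Npm1 and 0.43 for Rps6kb1. Leaving out 1 library ended the call for several of these, with adjusted p (limma) of up to 0.098 for Eef1g (without replicate 3 of TFEB cells in 4-OHT), 0.080 for Nap1l1 (without replicate 2 of TFEB cells in 4-OHT) and 0.16 for Rps6kb1 (without replicate 3 of vector cells in vehicle). Without replicate 1 of vector cells in vehicle, 0 of the 5 negative calls among cytosolic ribosomal protein genes remained. Over 26 alternatives of all kinds the call was lost in 15 for Rps20, 14 for Rpl28, 11 for Rpl36, 5 for Rpl5 and 3 for Rps10. Rpl3l kept its call in each of the 25 alternatives that included it.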

How the results depend on the processing

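The medians over the 78 genes kept their sign under every alternative run, and no called value of a named gene changed sign. Leaving out each library in turn gave 35 to 59 genes lower and 1 to 2 higher in TFEB cells (median -0.36 to -0.24), 0 to 1 lower and 0 higher in vector cells, 0 to 15 lower and 1 higher in the interaction, 31 to 60 lower and 1 higher for TFEB against vector cells in 4-OHT, and 1 to 7 lower and 0 to 1 higher in vehicle. A minimum of 1000 removed Rpl3l, so 0 genes were higher in TFEB cells, in the interaction and in TFEB against vector cells in 4-OHT. For genes lower in TFEB cells, no variance trend gave 23 and leaving out 3 libraries (from each group but vector cells in vehicle, the library in which most genes had a read) gave 36; for TFEB against vector cells in 4-OHT these gave 24 and 15. In vector cells array weights gave 1 lower. So did leaving out 2 libraries taken to stand apart by a measure not given here. These were replicate 2 of vector cells in 4-OHT and replicate 3 of TFEB cells in vehicle. The interaction count was 10 with DESeq2, 8 with edgeR, 13 with a minimum of 1000, 9 with a minimum of 50, 3 with no filter, 0 with no variance trend, 2 with a pseudocount of 0.1, and 1 without the 2 libraries or without the 3. In vehicle it was 11 with array weights, 3 with no filter, 0 with no variance trend, 1 with only the groups compared, 3 without the 2 libraries and 3 without the 3; DESeq2 and leaving out the 3 called 1 higher. Without Rn45s in the total, the share in TFEB cells in 4-OHT was 6.51%. The cause was not tested. Adding replicate number as a block gave 59 lower and 1 higher in TFEB cells, 0 in vector cells, 7 and 1 in the interaction, 47 and 1 in 4-OHT and 6 and 0 in vehicle; same-numbered libraries correlated at -0.54 to 0.67 (mean -0.06, 18 pairs), so the numbers pair nothing. Depth limited Rps27, Rpl34 and Rpl3l, for which 1 read was worth 0.737 to 1.38 normalized counts, depending on the library.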
